A study of Mus musculus with 2 samples.

Results

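A set of 42 genes gave a higher signal at ZT22 than at ZT10 in the hypothalamus of control mice and again in that of mice given bezafibrate. ZT is zeitgeber time, the number of hours since lights on, so these are a pair of times in the daily cycle. The members were chosen by measured values. A gene, as given by its symbol on the array, was represented by its brightest probe. It had to be well above background on all 4 arrays, and had to be higher at ZT22 by at least 1.5-fold in each diet. Of the 21793 genes with a symbol, 16095 were above background on all 4 arrays, and 47 of these met the threshold in both diets, or 0.292%. The 42 remain after 7 genes were left out by name, of which Ttr, Kcne2, Ptgds, Slc6a13 and Ogn met the threshold and Col1a1 and Aldh1a2 did not. Because these time differences chose the members, they are given as a description with no test.

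The study asked how bezafibrate, a fibrate drug that activates the nuclear receptor PPAR-alpha, acts on hypothalamic transcripts in mice. Each of 4 one-colour (Cy3) whole-genome arrays read 1 pool of RNA, made from the dissected brain blocks (hypothalamus included) of 4 mice. The groups were control mice at ZT10, control mice at ZT22, bezafibrate mice at ZT10 and bezafibrate mice at ZT22. By the labels, mice were 8 weeks old at the start, received a normal diet for 2 weeks, then 0.5% bezafibrate in the feed for another 2 weeks, and spent 5 final weeks on the normal diet. The labels do not say at which point of this schedule the brains were taken, what the control mice ate in the drug weeks, the strain, the sex or the light schedule. With 1 array for each group there is no spread between mice or pools and no p-value for any pair of arrays. The number that follows ± comes from the spot errors that the scanner software reported, and it covers the spot alone. All arrays lay on 1 slide, with ZT10 at positions 2 (control) and 4 (bezafibrate) and ZT22 at positions 1 (control) and 3 (bezafibrate). So the time of day cannot be told apart from the odd or even position. Diet cannot be told apart from positions 1 and 2 (control) against 3 and 4 (bezafibrate). Neither can be told apart from differences between the mice of each pool. In these bulk samples a change in the number of cells of a type and a change in RNA per cell cannot be told apart either.

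The 75th percentile of processed signal, which scales each array, was 1010 units on both control arrays, 1050 for bezafibrate at ZT10 and 893 for bezafibrate at ZT22. Between 68.7% and 74.6% of features were well above background. Of 28 listed hypothalamic neuropeptide genes, 26 were above background on all 4 arrays. So were 9 of 15 anterior pituitary genes and 29 of 30 meningeal fibroblast genes, where 16095 of the 21793 genes with a symbol were. These counts do not show which tissue the transcripts came from.

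Daily rhythms of transcripts in the mouse brain come from the cell-autonomous clock, from feeding and activity, and from hormones. In the clock, CLOCK and BMAL1 (encoded by Arntl) act through E-boxes, the D-box factors DBP and NFIL3 through D-boxes, and the ROR and REV-ERB receptors through ROR elements, and these sites are each associated with different phases of the day. In nocturnal mice the hypothalamus is also where ghrelin receptor neurons read a hunger signal during the active phase. The 42 genes are not a known pathway. They code for membrane and matrix proteins, receptors, zinc finger proteins, enzymes, immune proteins and noncoding transcripts.

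Promoters of 4 members are printed here. Ghsr, Bank1 and Tspan8 are the only members whose promoter in the table held a ROR element, and Cldn5 is the brightest member. The sequences are RefSeq's, build GRCm38.p6, and run 5′ to 3′ on the gene's strand from 250 bases before the annotated start to 50 bases after it, 300 bases in all. Capitals mark a ROR element (TAGGTCA on either strand) in Ghsr, Bank1 and Tspan8, and in Ghsr also a heat shock element (GAANNTTC). No searched motif is in the Cldn5 window.
Ghsr, chr3:27371101-27371400, + strand: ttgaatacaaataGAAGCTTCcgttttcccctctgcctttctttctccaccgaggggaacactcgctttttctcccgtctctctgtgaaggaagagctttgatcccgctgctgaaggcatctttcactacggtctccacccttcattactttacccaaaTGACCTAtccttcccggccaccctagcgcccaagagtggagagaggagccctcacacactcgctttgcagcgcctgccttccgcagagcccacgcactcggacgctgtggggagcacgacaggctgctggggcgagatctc
Bank1, chr3:136326017-136326316, - strand: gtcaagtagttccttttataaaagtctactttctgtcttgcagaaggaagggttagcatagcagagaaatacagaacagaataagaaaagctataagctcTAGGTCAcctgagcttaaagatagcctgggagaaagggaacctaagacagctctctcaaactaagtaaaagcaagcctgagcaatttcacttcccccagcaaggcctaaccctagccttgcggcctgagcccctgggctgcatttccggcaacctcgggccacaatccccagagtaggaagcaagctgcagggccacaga
Tspan8, chr10:115817034-115817333, + strand: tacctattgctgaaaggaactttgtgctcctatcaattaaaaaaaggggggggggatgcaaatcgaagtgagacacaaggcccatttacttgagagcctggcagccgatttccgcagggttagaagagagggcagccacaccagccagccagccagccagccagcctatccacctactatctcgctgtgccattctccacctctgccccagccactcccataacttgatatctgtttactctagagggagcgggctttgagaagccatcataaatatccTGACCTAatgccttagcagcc
Cldn5, chr16:18776597-18776896, + strand: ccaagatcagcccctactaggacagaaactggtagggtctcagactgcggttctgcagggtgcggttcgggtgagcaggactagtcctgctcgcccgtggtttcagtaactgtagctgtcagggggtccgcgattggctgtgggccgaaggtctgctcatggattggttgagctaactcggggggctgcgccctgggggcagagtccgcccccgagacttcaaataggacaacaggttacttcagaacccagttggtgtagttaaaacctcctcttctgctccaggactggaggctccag

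The promoter table held 45 promoters for 37 of the 42 genes and 32851 in all. On both strands, the ROR element was in 3 of the 45, or 6.67%, against 2.61% of all promoters. The E-box CACGTG was in 3, those of Gpx6, Wdr86 and Zfp871, or 6.67% against 7.15% of all. The heat shock element was in 4 (8.89% against 7.86%), those of A330023F24Rik, Ghsr, Omd and Serpinb5. ACANNNTGT, the spaced core of a glucocorticoid element, was in 6 (13.3% against 6.85%), those of A330023F24Rik, Olfr62, Omd, Pabpc4l, Tnk1 and Zfp871. The D-box (TTATGTAA or TTACATAA) and the cyclic AMP element TGACGTCA were in 0 of the 45, and in 0.938% and 1.79% of all promoters. These shares rest on 6 promoters at most, and a match is a stretch of letters and not a bound site. Median GC content was 55.7% in members' promoters and 52.7% in all.

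Most of the 42 genes were dim. Their mean processed signal over the 4 arrays had a median of 63.2 units and ran from 18.4 (Cysltr2) to 4755 (Cldn5), against a median of 915 over all 16095 genes. The mean signal was under 100 units for 29 of the 42, or 69%, where 18.1% of all genes were that dim. It was under 50 units for 18 of them. Another 11 lay between 100 and 1000 units, and only Cldn5 and Mmp14 exceeded 1000. The share of genes past the threshold in both diets, with the named exceptions counted, was 1.12% of genes under 50 units, 0.92% between 50 and 100, 0.26% between 100 and 1000, and 0.038% at 1000 and over. The mirror set, 84 genes lower at ZT22 in both diets (0.522% of genes), was as dim, with a median of 62.0 units and 59 genes under 100.

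**Figure D1:**
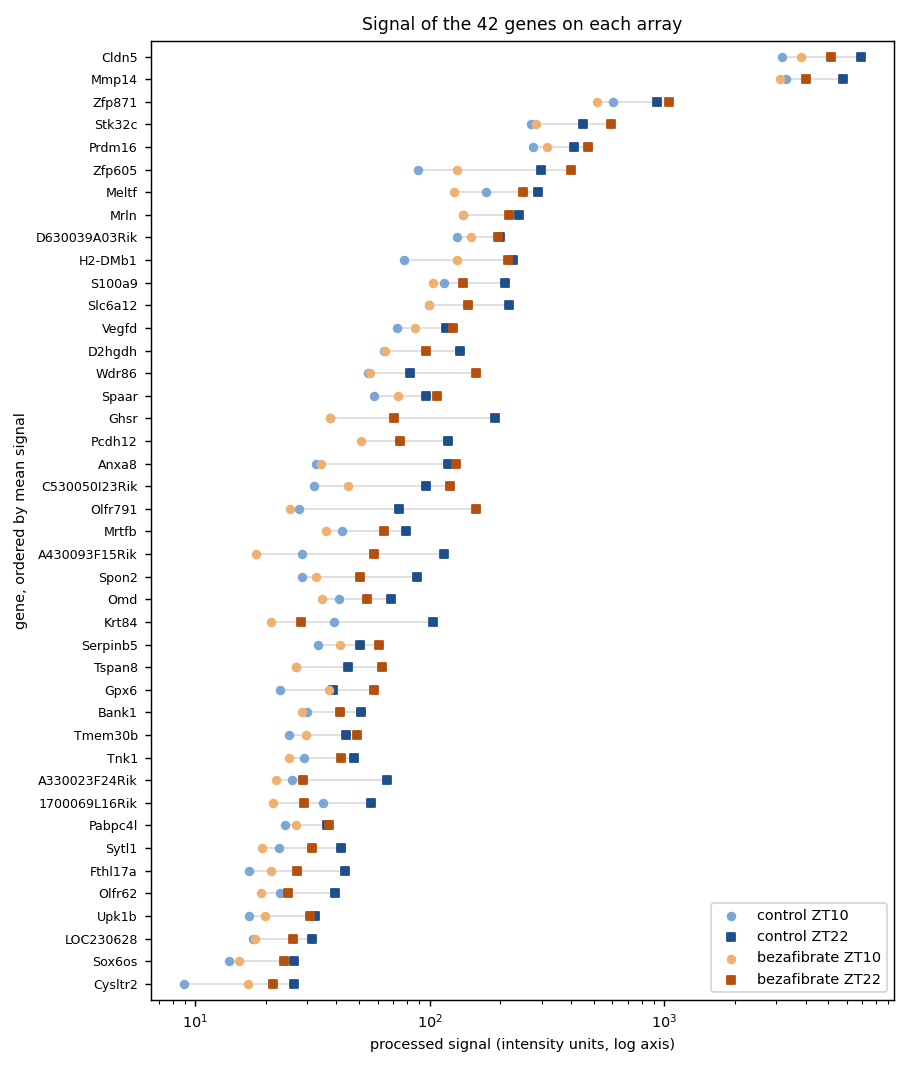
Processed signal (intensity units, log axis) of each of the 42 genes on the 4 arrays, ordered by mean signal, with circles for ZT10, squares for ZT22, blue for control and orange for bezafibrate. The signals are not yet scaled between arrays, and 29 genes have a mean under 100 units.

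Log2 differences between ZT22 and ZT10 had a median of 0.83 in control (0.59 to 2.33) and 0.86 in bezafibrate (0.59 to 2.86), where the medians of all genes were 0.03 and 0.04. In each diet alone, 1.8% (control) and 2.03% (bezafibrate) of all genes were higher at ZT22 by the same threshold. Within the set, 6 genes reached 2-fold in both diets, 9 in control alone, 6 in bezafibrate alone, and 21 in neither. Scaled to the array, the lower ZT22 level lay above the higher ZT10 level in 40 genes, and Krt84 and 1700069L16Rik are the exceptions. In 38 genes both differences exceeded 2 scanner errors, and A330023F24Rik, Olfr62, Fthl17a and Cysltr2 missed that in bezafibrate. The rule, which asks for 1.5-fold in each diet, favours both of these counts. They describe the members and are no separate evidence of a time difference. Control ZT22 was the highest array for 22 genes and bezafibrate ZT22 for 20.

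**Figure D2:**
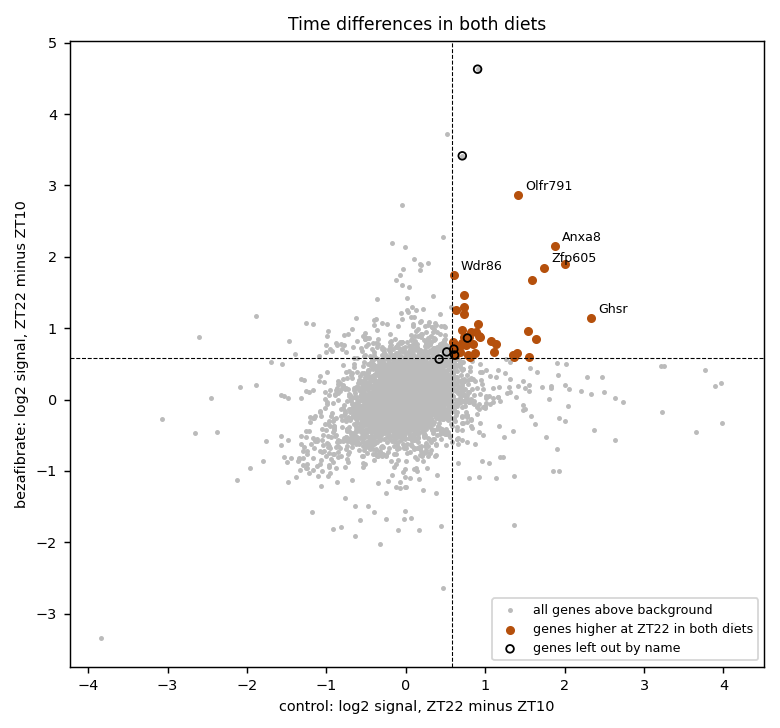
Log2 difference between ZT22 and ZT10 in control (horizontal) against bezafibrate (vertical) for the 16095 genes above background, with the 42 genes in orange, genes left out by name as open circles and dashed lines at 1.5-fold. Ghsr lies far along the control axis (2.33, against 1.14 in bezafibrate) and Olfr791 far along the bezafibrate axis (2.86, against 1.41 in control).

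The largest group by role, assigned after the values were known, was 12 membrane, junction and extracellular genes, with median time differences of 0.77 in control and 0.82 in bezafibrate. Cldn5 codes for claudin-5, the main tight junction protein of brain endothelium. Its signals were 3170 units in control at ZT10, 6870 in control at ZT22, 3820 in bezafibrate at ZT10 and 5160 in bezafibrate at ZT22. Both ZT22 signals were above both ZT10 signals, and the difference was 1.12 ± 0.20 in control and 0.67 ± 0.20 in bezafibrate. The list of endothelial genes does not include the endothelial member Pcdh12, and none of its other 17 measured genes passed the threshold in either diet. The whole endothelial list had medians of 0.00 and 0.06. Its summed signal, in units of the array's 75th percentile, was 47.7 in control at ZT10, 52.1 in control at ZT22, 47.9 in bezafibrate at ZT10 and 51.0 in bezafibrate at ZT22, Cldn5 included.

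Mmp14, a membrane-anchored metalloproteinase that cleaves matrix and activates other proteases, gave 3300 units in control at ZT10, 5800 in control at ZT22, 3120 in bezafibrate at ZT10 and 4000 in bezafibrate at ZT22. Its ZT22 level was higher in each diet, but by only 0.59 ± 0.20 in bezafibrate, at the edge of the threshold. Anxa8, a calcium-dependent phospholipid-binding annexin, is the sole member with repeated spots, 10 on each array. Its mean signals were 32.8 (control ZT10), 119.9 (control ZT22), 34.4 (bezafibrate ZT10) and 129.3 units (bezafibrate ZT22). The 10 spots had an SD of 0.06 to 0.17 on the log2 scale within an array, so the differences of 1.87 and 2.15 are many times the spread between spots of the same pool. At ZT10 no spot exceeded 41.6 units, and at ZT22 no spot fell under 110.

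Slc6a12, the betaine and GABA transporter BGT1, gave 99.2 units (control ZT10), 218 (control ZT22), 99.5 (bezafibrate ZT10) and 145 (bezafibrate ZT22). The difference was 1.14 ± 0.21 in control and 0.78 ± 0.21 in bezafibrate. Melanotransferrin, an iron-binding surface protein encoded by Meltf (Mfi2 in the files), had differences of 0.74 ± 0.21 and 1.20 ± 0.21. Spon2, a matrix protein also known as mindin, had 28.5 units (control ZT10), 88.4 (control ZT22), 32.8 (bezafibrate ZT10) and 50.3 (bezafibrate ZT22), or differences of 1.63 ± 0.23 and 0.85 ± 0.27. Vegfd (Figf in the files), a growth factor of lymphatic vessels, had differences of 0.69 and 0.77. The other 6 were Omd, a keratan sulfate proteoglycan of the matrix, the tetraspanins Upk1b and Tspan8, the endothelial protocadherin Pcdh12, the serpin Serpinb5 and, already given, Anxa8. Differences in control and bezafibrate were 0.73 and 0.88 for Omd, 0.93 and 0.88 for Upk1b, 0.70 and 0.79 for Pcdh12, and 0.60 and 0.78 for Serpinb5. Tspan8 had a larger difference in bezafibrate (1.46 ± 0.27) than in control (0.73 ± 0.24).

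Among 4 transcription regulators, the zinc finger gene Zfp605 stood out for a large difference at a signal above the dim range. It gave 89.4 units in control at ZT10, 299 in control at ZT22, 131 in bezafibrate at ZT10 and 401 in bezafibrate at ZT22. The ZT22 signals were more than 3-fold those of ZT10, with differences of 1.74 ± 0.21 and 1.85 ± 0.21. Zfp871, another zinc finger gene and the third brightest member, gave 602 units (control ZT10), 935 (control ZT22), 516 (bezafibrate ZT10) and 1050 (bezafibrate ZT22), or 0.64 ± 0.20 and 1.26 ± 0.20. Prdm16, a regulator of brown fat and stem cell identity, was just inside the threshold in control at 0.59 ± 0.20 and at 0.81 ± 0.20 in bezafibrate. Mrtfb, a coactivator of serum response factor, had 0.91 ± 0.22 and 1.06 ± 0.25.

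The 4 G protein-coupled receptors were all dim. Ghsr is the receptor for ghrelin, the stomach hormone that drives feeding and growth hormone release, and it is expressed in arcuate neurons. Its signals were 37.5 units in control at ZT10, 189 in control at ZT22, 37.4 in bezafibrate at ZT10 and 70.2 in bezafibrate at ZT22. Both ZT10 arrays were alike, and control ZT22 stood far above bezafibrate ZT22. The difference was 2.33 ± 0.22 in control and 1.14 ± 0.24 in bezafibrate. Olfr791, an odorant receptor gene, gave 27.8 units (control ZT10), 73.7 (control ZT22), 25.4 (bezafibrate ZT10) and 157 (bezafibrate ZT22). Here bezafibrate ZT22 was the highest array, with differences of 1.41 ± 0.25 in control and 2.86 ± 0.28 in bezafibrate. Olfr62 was at 0.78 and 0.62, and these 2 odorant receptor genes stand among 166 that were above background on all arrays. Of those 166, 12 were higher and 4 lower at ZT22 in control, and 16 higher and 14 lower in bezafibrate, where 1.8% and 2.03% of all genes were higher and 1.93% and 1.48% lower. Odorant receptor genes were mostly dim, 93 of the 166 under 50 units. Of these 7.53% and 9.68% were higher, against 6.53% and 7.21% of all genes that dim. Between 50 and 100 units, where Olfr791 lies, 4 and 7 of 43 were higher, or 9.30% and 16.3%, against 5.62% and 6.23% of all genes. At 100 units and over, 1 and 0 of 30 were higher, or 3.33% and 0%, against 0.849% and 0.978%. Cysltr2, a receptor for cysteinyl leukotrienes and the dimmest member, had 8.98 units (control ZT10), 26.3 (control ZT22), 16.8 (bezafibrate ZT10) and 21.5 (bezafibrate ZT22).

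H2-DMb1 codes for a chain of the H2-DM complex, which loads peptides onto MHC class II molecules. It gave 77.7 units in control at ZT10, 226 in control at ZT22, 130 in bezafibrate at ZT10 and 216 in bezafibrate at ZT22. The differences were 1.54 ± 0.21 and 0.97 ± 0.21, and the ZT10 arrays differed more than the ZT22 arrays. Its near-identical neighbour H2-DMb2 had -0.30 and -0.45, and cross-hybridization between this pair was not tested. S100a9, a calcium-binding protein of neutrophils, gave 115 units (control ZT10), 210 (control ZT22), 103 (bezafibrate ZT10) and 138 (bezafibrate ZT22), or 0.87 ± 0.21 and 0.66 ± 0.21. It was the only one of 7 measured neutrophil and inflammatory genes to pass in the upward direction in either diet. Of that list 7 of 21 were above background on all arrays, and its summed signal was 1.51 in control at ZT10, 0.63 in control at ZT22, 1.103 in bezafibrate at ZT10 and 0.54 in bezafibrate at ZT22. These sums are in units of the array's 75th percentile, and 1 gene sets their direction: Chil3, a chitinase-like protein of myeloid cells, had -3.83 in control and -3.34 in bezafibrate. Without it the sums were 0.44 in control at ZT10, 0.56 in control at ZT22, 0.44 in bezafibrate at ZT10 and 0.48 in bezafibrate at ZT22, S100a9 included, and the medians of the whole list were 0.06 and 0.00. Bank1, a scaffold of B cell receptor signalling, had 0.76 and 0.77.

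The 4 kinase and enzyme genes had medians of 0.75 and 0.93. Stk32c, a serine/threonine kinase expressed in brain, gave 271 units in control at ZT10, 452 in control at ZT22, 283 in bezafibrate at ZT10 and 592 in bezafibrate at ZT22, or 0.74 ± 0.20 and 1.30 ± 0.20. D2hgdh, a mitochondrial dehydrogenase of hydroxyglutarate, had 1.07 ± 0.21 and 0.82 ± 0.23. The glutathione peroxidase Gpx6 and the tyrosine kinase Tnk1 were under 100 units, with 0.76 and 0.88 for Gpx6 and 0.71 and 0.97 for Tnk1. The 9 other protein-coding genes had medians of 0.80 and 0.79. They include Mrln, whose micropeptide inhibits the calcium pump of muscle, at 0.80 ± 0.21 and 0.88 ± 0.21, Spaar, whose micropeptide acts at the lysosome, at 0.73 ± 0.21 and 0.79 ± 0.21, and Wdr86, which had 0.60 ± 0.21 in control and 1.74 ± 0.22 in bezafibrate. The others were Tmem30b, a subunit of lipid flippases, Sytl1, a Rab effector in vesicle transport, the hair keratin Krt84, the ferritin-like Fthl17a, the poly(A)-binding-like Pabpc4l, and D630039A03Rik. Krt84 (1.40 ± 0.22 and 0.65 ± 0.32) and Fthl17a (1.36 ± 0.26 and 0.60 ± 0.30) had the larger difference in control, and Pabpc4l (0.59 and 0.69) and D630039A03Rik (0.61 and 0.62) were near the threshold in both diets. Tmem30b had 0.82 and 0.95, and Sytl1 0.88 and 0.94. The last group held 6 genes, 4 noncoding and 2 that kept the name in the files (C530050I23Rik and LOC230628), all under 100 units. A430093F15Rik had the largest smaller difference of all 42, with 28.6 units (control ZT10), 115 (control ZT22), 18.2 (bezafibrate ZT10) and 57.9 (bezafibrate ZT22), or 2.01 ± 0.23 and 1.90 ± 0.36. C530050I23Rik had 1.59 ± 0.24 and 1.68 ± 0.25. LOC230628 had 0.84 and 0.78, 1700069L16Rik 0.68 and 0.67, and A330023F24Rik 1.35 and 0.63. Sox6os, transcribed beside Sox6, had 0.92 and 0.88 where Sox6 itself had 0.14 and -0.08.

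**Figure D3:**
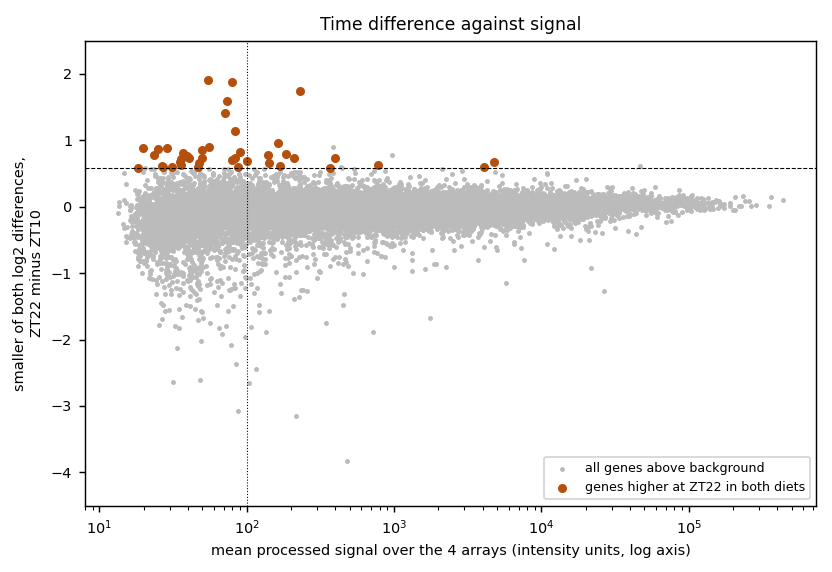
Smaller of both log2 differences between ZT22 and ZT10 (vertical) against mean processed signal (log axis) for the 16095 genes above background, with the 42 genes in orange, a dashed line at 1.5-fold and a dotted line at 100 units. Differences of all genes spread more widely at low signal, and 13 of the 42 genes lie at 100 units or more.

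The threshold cut through a continuous range of values. Just inside it were Cysltr2, Prdm16, Mmp14, Pabpc4l and Serpinb5, whose smaller difference was 0.59 to 0.60. Just outside were Klhl31 (0.58), Traf1 (0.58), Prdm6 (0.57), Ddit4l (0.57) and 1700121C10Rik (0.57). The scanner error of a member's difference had a median of 0.22 in control and 0.25 in bezafibrate, far more than the distance between these groups.

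Other probes of the same genes were not used by the rule, although they read the same pools. There were 19 such probes for 15 members, of which 7, for 6 genes, were above background on all 4 arrays. Only 1 of the 7 passed the threshold in both diets, the second probe of Spon2, at 1.12 ± 0.25 in control and 0.80 ± 0.36 in bezafibrate. Among all other probes above background, 14 of 8632 passed. The second Mmp14 probe, of 147 units, had 0.65 ± 0.21 and 0.30 ± 0.21, both above 0 but under the threshold in bezafibrate. The second probe of Mrtfb had 0.26 and 0.66. For Zfp871, the brighter of 2 other probes, of 253.5 units, had -0.18 ± 0.21 in control and 0.16 ± 0.21 in bezafibrate, and the dimmer had -0.24 and 0.22. The second Ghsr probe, of 24.2 units, had -0.62 ± 0.35 and -0.04 ± 0.35, so it did not show the difference that the first probe gave. A second probe of A330023F24Rik, listed under another symbol in the files and brighter than the chosen one, had -0.23 ± 0.21 and -0.11 ± 0.22. With both probes under 1 symbol, this gene would not have met the rule. The time differences of Ghsr, Zfp871 and A330023F24Rik therefore rest on 1 probe each, and which transcripts of the gene each probe reads was not analysed. For 27 members the array had no other probe.

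In the RefSeq gene order, 59 neighbouring genes of members were above background on all arrays, and 57 of them were within the threshold in both diets. The 2 that passed were Slc6a13, beside Slc6a12, at 0.78 ± 0.20 and 0.86 ± 0.20, and Ogn, beside Omd, at 0.60 ± 0.20 and 0.71 ± 0.20. Slc6a13 is a GABA transporter of the leptomeninges and Ogn a matrix proteoglycan, and both are among the genes left out by name.

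Diet was compared at each time with the same threshold. At ZT10, 7 of the 42 genes differed between diets (3 higher in bezafibrate, 4 lower) where 2.21% of all genes did, and at ZT22 11 differed (5 higher, 6 lower) where 2.88% did. Among all genes between the members' lower and upper quartile of signal, 6.31% and 8.55% were past it, more than of all genes and less than of the 42. Within the threshold were 83.3% of the 42 at ZT10 and 73.8% at ZT22. What lies behind the higher share of the 42 was not tested. The median diet difference of the 42 was -0.04 at ZT10 and -0.02 at ZT22, with 19 and 20 genes above 0, so the set did not lean one way. The same sign at both times was seen in 33 of 42 genes, against 54.5% of all genes. The change in diet difference between times equals the difference between both time differences, which the rule used. So this count is not independent of the rule.

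Krt84 was lower in bezafibrate at both times, with the largest diet difference of the 42 genes at each time. It gave 38.9 units in control at ZT10, 103 in control at ZT22, 21 in bezafibrate at ZT10 and 28.1 in bezafibrate at ZT22, so both bezafibrate arrays lay under both control arrays. The diet difference was -0.95 ± 0.31 at ZT10 and -1.70 ± 0.23 at ZT22. A430093F15Rik (-0.71 and -0.81) and 1700069L16Rik (-0.76 and -0.77) were also lower at both times, and Gpx6 was higher at both (0.64 and 0.76). Ghsr was alike in both diets at ZT10 (-0.06 ± 0.25) and lower in bezafibrate at ZT22 (-1.25 ± 0.21). Its second probe gave 29.6 units in control at ZT10, 19.2 in control at ZT22, 26.2 in bezafibrate at ZT10 and 21.7 in bezafibrate at ZT22, with no such pattern. Olfr791 (1.27 ± 0.23) and Wdr86 (1.12 ± 0.21) were higher in bezafibrate at ZT22 alone. Lists of tissue markers had the same pattern on these arrays. The median diet difference was -0.06 at ZT10 and 0.51 at ZT22 for 14 choroid plexus genes, and -0.06 and 0.47 for 16 striatum genes. The medians of all genes were 0.01 at both times. Whether the make-up of the tissue pools has a part in the members' diet differences was not tested. At ZT22 A330023F24Rik had -1.005 ± 0.25, Spon2 -0.64 ± 0.22, Tspan8 0.66 ± 0.23 and Zfp605 0.60 ± 0.20. At ZT10 Cysltr2 had 0.85 ± 0.40, H2-DMb1 0.69 ± 0.21 and Pcdh12 -0.59 ± 0.24. The time difference itself was at least 1.5-fold apart between diets in 10 genes, and under 0.3 apart on the log2 scale in 27. The rule used both of these time differences and the shares among all genes were not counted, so the counts only describe the members.

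**Figure D4:**
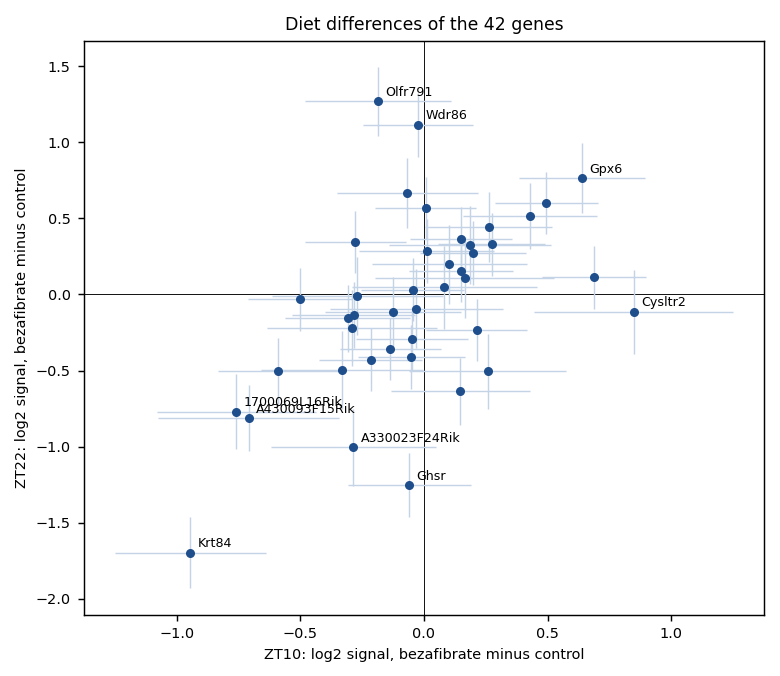
Log2 difference between bezafibrate and control at ZT10 (horizontal) and ZT22 (vertical) for the 42 genes, with bars of 1 scanner error. Krt84 lies at the lower left (-0.95 and -1.70), while Ghsr, Olfr791 and Wdr86 are displaced at ZT22 alone.

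The diet effect averaged over both times was tested with limma across all 16095 genes, in an additive model of diet and time with 1 residual degree of freedom. No gene passed an adjusted p of 0.05 (0%), and the smallest adjusted p among the 42 genes was 0.78. At an unadjusted p under 0.05 the model listed 1001 genes, 15 of them members. Its residual is the difference between both time differences, which the rule used, so the 15 are not read further.

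Of 27 gene lists, 24 held no member and 22 had no gene at all past the threshold in both diets. The lists together held 693 measured genes, of which 8 passed in both diets (4 members and 4 genes left out by name), or 1.15% against 0.292% of all genes. Most lists were short, so an empty list says little, and the lists were drawn up with earlier results known. Besides Cldn5, S100a9 and the pair of odorant receptors, the 38 remaining members were on no list. Among clock genes that peak at night or dawn, 0 of 8 passed the threshold in either diet, with Arntl at 0.49 ± 0.20 and 0.34 ± 0.20, Nfil3 at 0.54 and 0.30, Clock at 0.29 and 0.26, Cry1 at -0.02 and -0.30 and Npas2 at -0.16 and 0.45. Of 11 clock genes that peak in the day or at dusk, 3 were lower at ZT22 in control and 0 in bezafibrate, with Dbp at -1.26 ± 0.20 and -0.53 ± 0.20 and Per2 at -0.45 and -0.39. Of 23 heat shock chaperone genes, 20 had values above 0 in both diets, with medians of 0.22 and 0.23, where 42.6% of all genes were above 0 in both diets. Other lists leaned the same way, with 60 of 76 cytosolic ribosomal protein genes and 73 of 94 oxidative phosphorylation genes above 0 in both.

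Many markers of the meninges were also higher at ZT22. Of 29 measured meningeal fibroblast genes, 23 were above 0 in both diets, against 42.6% of all genes. The ribosomal (60 of 76) and oxidative phosphorylation (73 of 94) lists leaned in the same way. Past the threshold were 4 meningeal genes in control and 11 in bezafibrate, with list medians of 0.29 and 0.53. Only 2 passed in both diets, Slc6a13 and Ogn, which are left out of the set by name. Lama1 was lower in control (-0.62). Their summed signal, in units of the array's 75th percentile, was 26.1 in control at ZT10, 30.2 in control at ZT22, 22.8 in bezafibrate at ZT10 and 30.8 in bezafibrate at ZT22. Of 14 choroid plexus genes, 2 were past the threshold in control and 9 in bezafibrate, with list medians of 0.17 and 0.87. The 2 in control were Ttr and Kcne2, which are left out of the set by name and are also among the 9. With both included, the summed signals of this list were 21.2, 24.6, 19.4 and 31.2 in the same order of arrays. The part of either tissue in the differences of Omd, Slc6a12 or any other of the 42 genes was not tested.

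A low signal makes the background correction matter. With normexp-corrected median signals and an offset of 50 units, which by construction draws the ratios of dim spots towards 0, all 42 genes stayed above 0 in both diets and 9 stayed past the threshold. These 9 were A430093F15Rik, Anxa8, Zfp605, C530050I23Rik, Ghsr, H2-DMb1, Stk32c, Zfp871 and Cldn5. Other probes of Ghsr and Zfp871, given above, did not show the difference. The median of the smaller difference was 0.41 instead of 0.73. By this measure Zfp605 kept the largest difference, at 1.31. The same spots chose the members, so a sign kept under this correction is no separate evidence of a time difference.

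**Figure D5:**
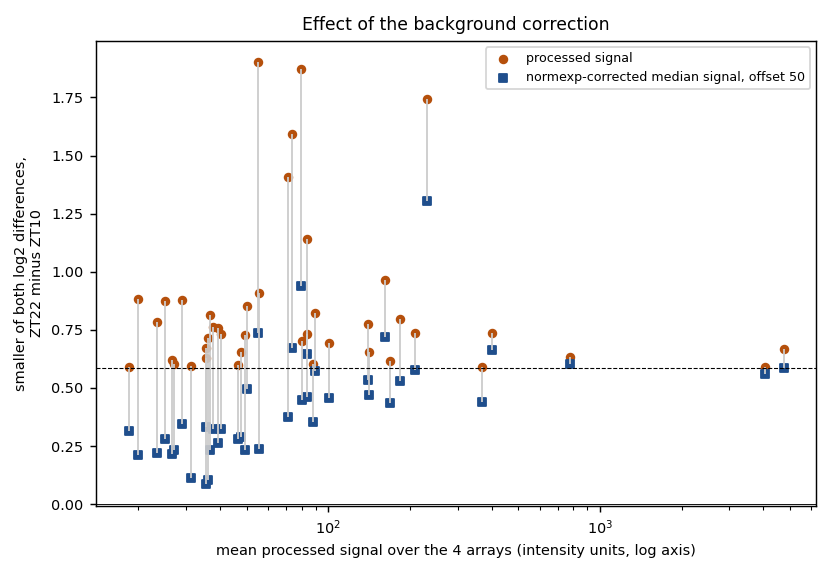
Smaller of both log2 differences between ZT22 and ZT10 for the 42 genes against mean processed signal (log axis), from the processed signal (orange circles) and from normexp-corrected median signals with an offset of 50 (blue squares), with a dashed line at 1.5-fold. All squares lie above 0, 9 of them past the threshold.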

How the data were processed

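Arrays were scanned and spots extracted by the authors with Feature Extraction 9.5.1.1, per the file headers. The deposited processed signal is a background-subtracted intensity that is not scaled between arrays. A deposited ratio of bezafibrate over control, per the labels for present spots, was checked against the array files (r of 0.996 at ZT10 and 0.995 at ZT22 across spots, with constant log2 offsets of -0.14 and 0.10) and used as an alternative for the diet differences alone. Groups came from the labels.

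Here, control and outlier spots were left out, spots of a probe were averaged, and log2 processed signal minus each array's 75th percentile was used. The error of a log2 ratio combines the deposited signal errors. Genes are named as in RefSeq (GRCm38.p6, names and order only): 29 members by accession, 4 by symbol and 7 by an older symbol, while 2 kept the file's name. The diet effect was fitted with limma 3.58.1 (R 4.3.3). The normexp alternative was planned on mean spot signals and used the deposited median intensity with its local background. In data simulated on 16095 genes, the time rule recovered 93 of 100 genes made higher by 1 on the log2 scale and no others. In such data limma recovered 100 of 100 made higher by 2 for diet with 7 others. Whether the simulated noise matched that of dim genes on the arrays was not tested. On the arrays, 6.53% of genes under 50 units were past the threshold upward in control and 7.21% in bezafibrate. The simulated counts therefore do not show how many members of the set passed by noise alone.

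Genes named were the 20 with the largest smaller difference, the 15 brightest, those on lists, the 5 on each side of the threshold, those with a diet difference of 1 or more, those with another probe measured, and fixed clock genes. Any other gene, clones included, was named after its values were seen. The members and lists were chosen with earlier results of these data known.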

Additional observations from a re-analysis of the deposited data

How the results depend on the processing

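The number of genes higher at ZT22 in both diets was 42. It was 9 with normexp, 13 among genes of 100 units or more, 253 with no background filter and 6 at a 2-fold threshold. It stayed within 1.5 times with quantile normalization (47, of which 41 shared), median centring (40), the 75th percentile of detected probes (34), the mean of all probes of a gene (39) and outlier spots kept (45). Under 6 settings applied gene by gene, 7 genes passed throughout. The number past the threshold for diet at ZT10 was 7, but 0 with normexp and 1 among genes of 100 units or more, and at ZT22 11, but 4 and 1. The other probes that passed numbered 1, but 0 with normexp and 0 among probes of 100 units or more. The time differences kept their direction under each of these settings that gave all 42 genes a value. The settings mostly reprocess the spots that chose the members, so the kept direction is no separate evidence of a time difference. The median diet difference of the set lay near 0 and took either sign: -0.04 at ZT10 but 0.04 with quantile normalization and 0.01 among genes of 100 units or more, and -0.02 at ZT22 but 0.08 with normexp, 0.01 with quantile normalization and 0.11 among genes of 100 units or more. Against the deposited ratio, 39 of 42 genes kept their diet sign at ZT10 and 40 at ZT22. With normexp, 4 of 29 genes under 100 units and 5 of 13 brighter ones passed, a contrast that the offset builds in for dim genes. A fit with replicate numbers as a block was not possible because each group held 1 pool, and the limma fit already compares diets within each time. Leaving out an array leaves no time difference in 1 diet.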
